A study of Mus musculus with 4 samples.

Results

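The Hox genes are the homeobox transcription factors that record position along the body, and they were chosen here by name: every row of the count table whose mouse symbol is Hox followed by a cluster letter from a to d and a paralog number. The rule found 39 members among the 39056 genes of the table, 11 in HoxA, 10 in HoxB, 9 in HoxC and 9 in HoxD. They were followed through 4 poly(A) RNA-seq libraries, with 1 library for each label: no LPS, and 8, 16 and 20 h of lipopolysaccharide (LPS, bacterial endotoxin) at 10 mg/kg given into the peritoneum. All 4 are labelled as lung endothelial cells of S1PR1-GFP reporter mice, a line in which green fluorescent protein marks cells that express the sphingosine-1-phosphate receptor S1PR1. Cells were sorted as GFP-positive, CD31-positive and CD45-negative, and the labels give neither the age of the mice nor how many went into a library. Since each label has a single library, nothing checks a difference between replicates: intervals cover counting error only and calls between libraries follow a rule of size, not a test.

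Hox genes stand in clusters, and their order along the chromosome matches the order of their domains from head to tail: low paralog numbers act in the hindbrain and pharynx, middle numbers in neck and chest, and high numbers in the lumbar and sacral trunk, the limbs and the genital tract. Paralogs, the genes with the same number in different clusters, descend from 1 ancestral gene and often act together. Adult fibroblasts and vessel wall cells keep much of the Hox pattern of the place where they arose, and in the lung the mesenchyme is known for genes of the front and middle groups, Hoxa5 above all. Hox proteins bind DNA with TALE-class partners of the Pbx and Meis families, and Polycomb and Trithorax complexes hold their genes silent or active.

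The libraries held between 27566454 and 28905776 reads, and 3 reads, the limit that a count of 0 allows, came to 0.104 to 0.108 CPM (a gene's reads scaled to library size, with TMM factors between libraries). The transcripts that define endothelium went against the labels. Of 15 endothelial markers 3 reached 1 CPM in any library, Pecam1 (CD31) had 7, 2, 2 and 1 reads from no LPS to 20 h, and Erg, Emcn, Cldn5 and Sox17 had 0 reads throughout. Summed over the list, endothelial markers took 17.4 to 36.6 CPM, against 9.20 to 10.6 CPM for 8 leukocyte markers, 51.6 to 125 CPM for 8 epithelial markers and 117 to 212 CPM for 8 fibroblast markers. Of the 8 leukocyte markers 6 reached 1 CPM in at least 1 library, in cells labelled CD45-negative. The epithelial sum came almost wholly from Krt8 and Krt18, and the fibroblast sum from Col3a1 and Pdgfra. Epcam had at most 3 reads and Col1a1 at most 4. Marker sums were at most 3.46 CPM for smooth muscle and pericytes, 4.11 for mesothelium, 1.99 for neural crest and glia, and 0.217 for red cells. "At 8 h" and the like therefore stand for the column with that label, and the Hox genes are described as those of the cells in these columns.

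Hox transcripts were present in all 4 libraries, at 2150 reads in the library without LPS, 2448 in that of 8 h, 2413 in that of 16 h and 2575 in that of 20 h. This was 76.1, 85.3, 87.1 and 93.0 CPM in the same order. A member was called on in a library at 1 CPM or more: of 39 members, 15, 15, 17 and 17 were on in the no LPS, 8, 16 and 20 h libraries, where 29.1%, 29.0%, 29.0% and 29.3% of all genes in the table reached that level. In at least 1 library 19 members were on, against 30.2% of all genes and 51.2% of protein-coding genes, and 15 were on in all 4. Of the 20 others, 8 had 0 reads in every library, 5 had 1 to 5 reads over the 4 libraries together and 7 had more. The members nearest the threshold were Hoxb5 and Hoxa2 just inside it, at 1.01 and 1.05 CPM in their highest libraries, and Hoxb6 and Hoxa6 just outside it, at 0.830 and 0.758 CPM. In bulk RNA fewer cells with a transcript and less transcript per cell cannot be told apart, nor can Hox genes on in the same cells be told from Hox genes on in different cells of one library.

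**Figure D1:**
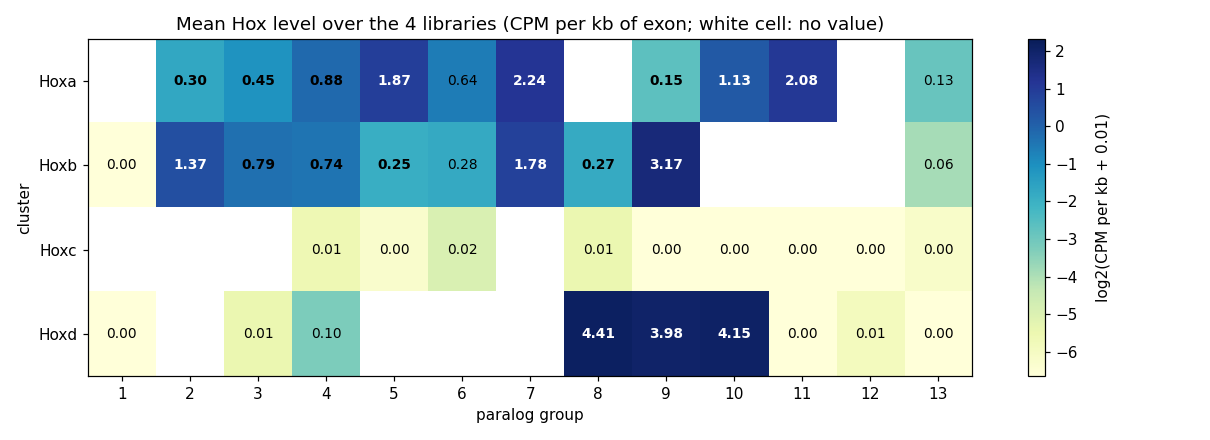
Mean level of Hox genes over the 4 libraries, in CPM per kb of exon, by cluster (rows) and paralog group (columns); bold numbers mark genes that reached 1 CPM in at least 1 library, and colour is log2 of the level plus 0.01; white cells hold no value. HoxA and HoxB were on over most of their length, HoxC was near 0 throughout, and in HoxD the genes of groups 8, 9 and 10 alone were on.

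By cluster, 9 of 11 HoxA genes, 7 of 10 HoxB genes, 0 of 9 HoxC genes and 3 of 9 HoxD genes were on in at least 1 library. HoxA carried 39.7% of the Hox reads with no LPS (95% exact binomial interval 37.6 to 41.8), and 38.9% to 39.8% over the 4 libraries. HoxD carried its lowest share at 8 h, 31.6% (29.7 to 33.5), against 35.6% with no LPS (33.6 to 37.7). HoxB carried its highest share at 8 h, 28.3% (26.6 to 30.2), against 24.7% with no LPS (22.8 to 26.5). HoxC carried at most 0.245%, at 8 h (0.0900 to 0.533). The map of means by cluster and paralog group shows the same division.

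HoxA lies on chromosome 6 of mm10, on the minus strand, with Hoxa13 (52257694 to 52260880) at its rear end. Hoxa2, the selector gene of the hyoid arch, was near its detection limit in the outer libraries: it had 5 reads in the library without LPS, 21 in that of 8 h, 29 in that of 16 h and 4 in that of 20 h. Its neighbour Hoxa3, needed for the thymus and parathyroid, had 2.23, 2.79, 3.10 and 2.67 CPM in the same order.

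Hoxa4, a gene of the neck vertebrae, had 1.13, 1.67, 1.41 and 1.41 CPM in the no LPS, 8, 16 and 20 h libraries. Hoxa5, whose loss in mice impairs the growth of trachea and lung, had 3.61 CPM in the library without LPS, 3.03 in that of 8 h, 2.38 in that of 16 h and 5.02 in that of 20 h. It was lowest at 16 h and highest at 20 h. Hoxa6 was not on by the rule, with 12, 15, 15 and 21 reads, but it is short. Its mean of 0.643 CPM per kb of exon stood above that of Hoxa3, 0.449 CPM per kb. Per kb of the longest coding transcript the order was reversed, with 1.04 for Hoxa3 and 0.643 for Hoxa6. Of the exon sequence of Hoxa3, 78.8% is free of other genes of the table. Hoxa7, of the chest region, was steady at 6.09, 6.10, 6.06 and 7.47 CPM.

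The rear part of HoxA was on up to Hoxa11. Hoxa9, a gene of blood stem cells that is also known in cultured human endothelium, was low, with 24 reads in the library without LPS, 14 in that of 8 h, 22 in that of 16 h and 32 in that of 20 h. Hoxa10, which acts in the lumbar spine and the uterus, had 3.54, 4.95, 2.92 and 3.43 CPM in that order. Hoxa11, which shapes the forearm and shank and acts in the uterus and kidney, had 4.67 CPM in the library without LPS, 3.80 in that of 8 h, 5.09 in that of 16 h and 5.45 in that of 20 h. Of its annotated exon sequence 65.0% is free of other genes of the table, since the antisense RNA Hoxa11os overlaps the rest, and the labels do not say whether the counting used strand. Hoxa13, of digits and the hind end of the gut and genital tract, was not on, at 5, 10, 15 and 5 reads.

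HoxB lies on chromosome 11, on the plus strand, with Hoxb13 (96194316 to 96197447) at one end and Hoxb1 (96365752 to 96368256) at the other. Hoxb1, a gene of the hindbrain, had 0 reads in all libraries, which by the limit of 3 reads allows up to 0.104 to 0.108 CPM. Hoxb2, which acts in the facial motor region of the hindbrain, had 4.10, 4.35, 4.87 and 5.74 CPM in the no LPS, 8, 16 and 20 h libraries. Hoxb3 had 3.64, 2.51, 2.96 and 4.297 CPM, and was lower in the 8 and 16 h libraries than in the other 2.

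Hoxb4, known for the expansion of blood stem cells, had 1.66, 1.95, 1.48 and 2.53 CPM in the no LPS, 8, 16 and 20 h libraries. Hoxb5, which acts in lung branching and marks long-term blood stem cells in mice, had 11, 24, 15 and 28 reads. Hoxb6 was not on, at 9, 16, 23 and 13 reads. Hoxb7 had 2.41, 2.47, 2.35 and 3.76 CPM, with 20 h above 3 libraries that lay close together.

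Hoxb8, which keeps myeloid progenitors from maturing when it is overexpressed, had 4 reads in the library without LPS, 24 in that of 8 h, 45 in that of 16 h and 7 in that of 20 h. It was thus close to the detection limit with no LPS and on at 16 h alone. Hoxb9, which patterns ribs with its paralogs, was the highest HoxB member at 5.91 CPM in the library without LPS, 10.6 in that of 8 h, 9.78 in that of 16 h and 6.43 in that of 20 h. Both Hoxb8 and Hoxb9 were higher in the 8 and 16 h libraries than in the no LPS and 20 h libraries. Hoxb13, a gene of the prostate and tail that stands apart from the rest of the cluster, had 5, 3, 4 and 2 reads.

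HoxC, on chromosome 15 from Hoxc13 (102921103 to 102928814) to Hoxc4 (103018934 to 103036852), was at or near 0 in every library. Its 9 genes together had 1, 6, 5 and 3 reads in the no LPS, 8, 16 and 20 h libraries. Hoxc9, Hoxc10, Hoxc11 and Hoxc12 had 0 reads throughout, and the highest count of any member was 3, for Hoxc8 at 8 h. Hotair, the long noncoding RNA made between Hoxc11 and Hoxc12, also had 0 reads in every library. Genes that flank the cluster were read: Smug1, a DNA repair gene, had 22.7, 13.6, 13.1 and 22.4 CPM in the no LPS, 8, 16 and 20 h libraries, and the heterochromatin protein gene Cbx5 had 336, 510, 503 and 330 CPM. In mouse embryos Hoxc6, Hoxc8 and Hoxc9 are well known in the chest and the spinal cord at limb level.

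HoxD, on chromosome 2 from Hoxd13 (74668310 to 74671599) to Hoxd1 (74762980 to 74765142), had an island of 3 neighbours on, with genes at or near 0 on both sides. Hoxd8 had the highest mean CPM of the Hox genes, though Hoxd9 stood above it at 20 h. It had 9.91 CPM in the library without LPS, 13.97 in that of 8 h, 13.5 in that of 16 h and 11.01 in that of 20 h. Hoxd9, which shapes the upper arm with its paralogs, had 9.69, 5.57, 6.03 and 12.7 CPM in that order, so it was lowest where Hoxd8 was highest. Hoxd10, which acts in the hindlimb and its motor neurons, was the steadiest measured member at 7.08, 7.11, 8.08 and 7.87 CPM.

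Beyond Hoxd10, the rear genes Hoxd11, which acts with Hoxa11 in the limb, and Hoxd13, of the digits, had 0 reads in all libraries, and Hoxd12 had 1, 0, 0 and 1 reads. On the front side Hoxd4 had 7, 7, 6 and 12 reads, Hoxd3 had 4, 1, 0 and 1, and Hoxd1 had 0. Of the exon sequence of Hoxd3 and Hoxd4, 37.2% and 47.7% are free of other genes of the table. Hoxd3 overlaps the noncoding Haglr on the opposite strand. Hoxd3 and Hoxd4 also overlap each other and a joint gene model, so reads shared among them may have been left out or split. That model, Gm28230, had 9, 3, 2 and 4 reads.

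The promoters at both edges of the HoxD island are shown because the level steps from 0 or near 0 to several CPM across them: Hoxd11 and Hoxd10 at the rear edge, Hoxd8 and Hoxd3 at the front edge. The Hoxd4 window follows, and its RefSeq start lies inside the annotated spans of Hoxd3 and Hoxd4. Each line is the 250 bases before the first RefSeq start listed for the gene, on the plus strand (GRCm38.p6, the build of mm10), 5′ to 3′. Other listed starts, where a gene has them, were not examined. Capitals mark matches, on either strand, to any of 4 motifs: the CCAAT box as named, the TATA box spelled TATAAA, a Pbx-Hox motif spelled TGATTNAT and a Cdx motif spelled TTTATGG. No marked matches overlap in these windows.
Hoxd11, chr2:74679308-74679557: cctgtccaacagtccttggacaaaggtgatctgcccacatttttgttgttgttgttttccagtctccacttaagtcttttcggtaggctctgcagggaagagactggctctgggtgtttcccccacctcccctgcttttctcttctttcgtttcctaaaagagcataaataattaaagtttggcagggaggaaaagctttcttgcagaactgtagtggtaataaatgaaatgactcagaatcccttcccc
Hoxd10, chr2:74691641-74691890: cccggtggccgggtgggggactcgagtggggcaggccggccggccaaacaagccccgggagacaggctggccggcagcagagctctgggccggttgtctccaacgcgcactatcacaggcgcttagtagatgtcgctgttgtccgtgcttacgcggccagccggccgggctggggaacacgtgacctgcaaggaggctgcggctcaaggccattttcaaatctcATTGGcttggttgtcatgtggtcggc
Hoxd8, chr2:74704365-74704614: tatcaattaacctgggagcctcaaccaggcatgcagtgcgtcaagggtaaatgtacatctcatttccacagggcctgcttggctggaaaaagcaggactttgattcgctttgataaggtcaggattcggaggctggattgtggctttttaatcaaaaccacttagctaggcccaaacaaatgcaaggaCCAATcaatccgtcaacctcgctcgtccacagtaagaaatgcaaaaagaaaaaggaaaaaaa
Hoxd3, chr2:74711743-74711992: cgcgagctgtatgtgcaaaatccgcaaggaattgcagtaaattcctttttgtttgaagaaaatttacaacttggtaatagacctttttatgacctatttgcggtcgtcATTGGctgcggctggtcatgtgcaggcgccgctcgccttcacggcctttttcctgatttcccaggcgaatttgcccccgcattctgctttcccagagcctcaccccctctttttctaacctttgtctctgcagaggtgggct
Hoxd4, chr2:74721728-74721977: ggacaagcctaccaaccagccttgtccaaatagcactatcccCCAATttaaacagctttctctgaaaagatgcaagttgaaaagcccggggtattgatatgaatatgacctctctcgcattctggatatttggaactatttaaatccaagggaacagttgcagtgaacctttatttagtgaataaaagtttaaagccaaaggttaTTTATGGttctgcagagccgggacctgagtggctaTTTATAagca

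At the rear edge the Hoxd10 window was 65.6% G and C with 20 CpG dinucleotides, and the Hoxd11 window 44.8% with 2. Elsewhere in HoxD, the windows of Hoxd13 and Hoxd1, both at 0 reads, were 74.4% with 31 CpG and 71.6% with 24. At the front edge the Hoxd8 window was 44.4% G and C with 6 CpG, and the Hoxd3 window 49.2% with 12. The Hoxd4 window was 40.4% G and C with 3 CpG. Hoxd10, Hoxd8 and Hoxd3 each held a CCAAT box, Hoxd4 held matches to the CCAAT box, the TATA box and the Cdx motif, and Hoxd11 held none of the 4. RefSeq promoters were at hand for 22 members, with the first listed start used for each gene. Their median share of G and C was 53.4% in the 12 measured members and 60.6% in the 10 others, with 52.0% over all genes. The median ratio of CpG observed to expected was 0.589 in the 12 measured members and 0.640 in the 10 others, both above the 0.378 of all 27025 genes with a promoter. A CCAAT match was in 5 of the 12 and 8 of the 10, against 34.5% of all promoters; TATA matches were in 1 and 2 (12.97% of all), Pbx-Hox matches in 1 and 0 (2.99%), and Cdx matches in 0 and 1 (2.45%). These are matches of letters in the window, not sites.

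By paralog group, all that was on lay in groups 1 to 11. Of the front groups 1 to 3, 5 of 8 genes were on in at least 1 library, with 23.0% to 25.9% of the Hox reads. Of the middle groups 4 to 8, 8 of 15 were on, with 34.7% to 38.0%. Of groups 9 to 11, 6 of 10 were on, with 37.5% to 41.7%. Groups 12 and 13 had 0 of 6 on, with 8 to 20 reads in all. Group 6 was the gap in the middle at 1 CPM: none of Hoxa6, Hoxb6 and Hoxc6 was on. That rule takes no account of length. Per kb of exon, Hoxa6 (0.643) stood above the measured member Hoxb8 (0.271), and Hoxb6 (0.277) was level with it. Hoxa6 and Hoxb6 were both above 0.5 CPM at 8 and 16 h. Groups 2 and 7 were the only ones with every gene on in at least 1 library. Within group 9, Hoxa9, Hoxb9 and Hoxd9 were on and Hoxc9 was not; within group 10, Hoxa10 and Hoxd10 were on and Hoxc10 was not.

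**Figure D2:**
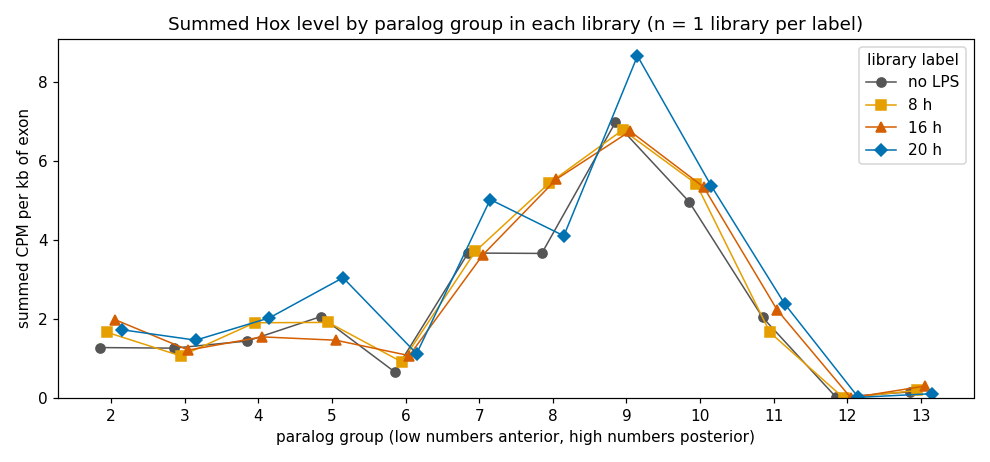
Summed level of all Hox genes of a paralog group, in CPM per kb of exon, for groups 2 to 13, with 1 line per library (n = 1 each). All 4 lines have a peak at group 9, a low at group 6 and values near 0 at groups 12 and 13. From group 7 to group 8 they part: the 8 and 16 h lines rise, the no LPS line is level and the 20 h line falls.

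Levels between genes were compared per kb of exon. Near the top of the order stood Hoxd8 at a mean of 4.41 CPM per kb, Hoxd10 at 4.15, Hoxd9 at 3.98 and Hoxb9 at 3.17, with Hoxa7 at 2.24 and Hoxa11 at 2.08 below them. The lowest of the measured members were Hoxa2 at 0.296, Hoxb8 at 0.271, Hoxb5 at 0.249 and Hoxa9 at 0.147. Of the 18 pairs of neighbours in this order, 17 had ranges over the 4 libraries that overlapped. The order among neighbours is thus not fixed by these data. The exception was Hoxb4, whose lowest library (0.577 CPM per kb) lay above the highest of Hoxa3 (0.516). That separation depends on the length used: per kb of exon free of other genes, Hoxa3 reached 0.655. Per kb of the longest coding transcript the order was reversed, with means of 1.04 for Hoxa3 and 0.743 for Hoxb4. Hox genes were weakly expressed beside other genes: the median of the 19 measured members was 1.37 CPM per kb, against 7.81 over all measured genes, and the highest, Hoxd8, stood at percentile 35.4.

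**Figure D3:**
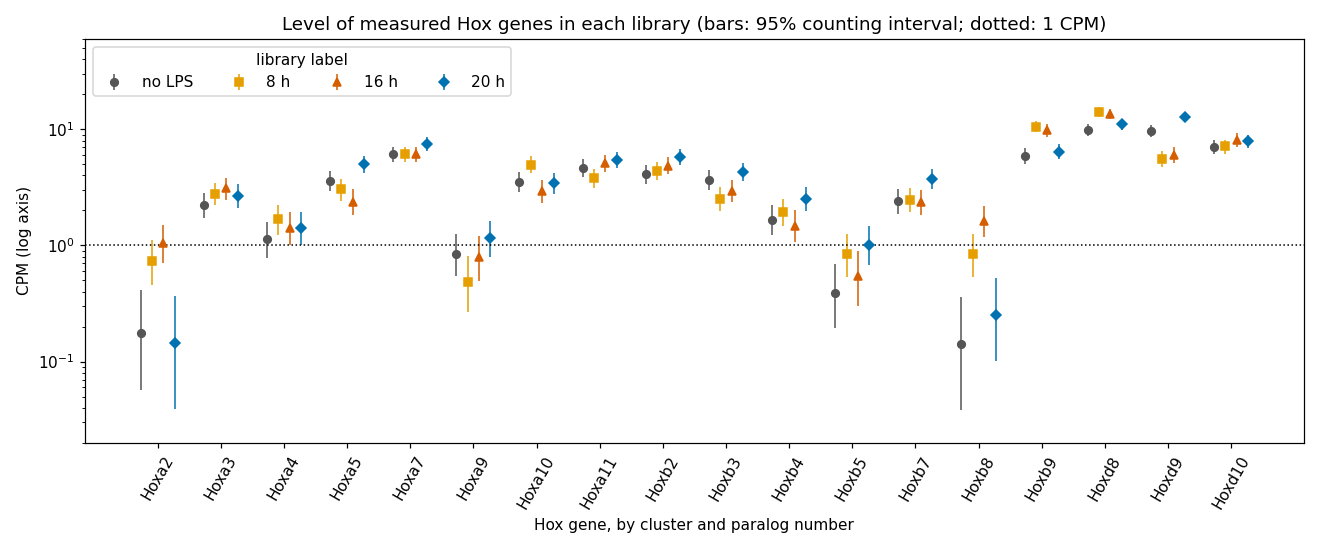
CPM of measured Hox genes in each library on a log axis, with 95% exact Poisson intervals of the reads; the dotted line is 1 CPM. Hoxa2 and Hoxb8 stand out for the distance between libraries, and Hoxd10 and Hoxa7 for the lack of it.

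The next question was how far the Hox genes differed between LPS labels. A gene was called between a pair of libraries with a fold of at least 2, a 95% counting interval of the fold that excludes 1, and 1 CPM in the higher library. At 8 h against no LPS, 0 of 19 measured members were called, while 8.31% of the 11803 measured genes were, 4.19% higher and 4.13% lower. Of these 19, 14 had a log2 ratio above 0, with a median of 0.22 beside 0.00 over all measured genes. Among members at 1 CPM or more in both libraries, the largest fold was that of Hoxb9, at 10.6 CPM at 8 h against 5.91 CPM with no LPS, 1.79-fold (1.47 to 2.17). Hoxd8 was 1.41-fold (1.21 to 1.65), with 13.97 CPM at 8 h and 9.91 CPM with no LPS. In the other direction Hoxd9 was at 0.575-fold (0.470 to 0.701). Hoxb8, with 24 reads at 8 h against 4, was 5.91-fold (2.03 to 23.4) but below 1 CPM in both libraries.

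At 16 h against no LPS, Hoxb8 and Hoxa2 were called higher and none lower, 2 of 19, where 4.13% of measured genes were called higher, 4.09% lower and 8.23% in either direction. Hoxb8 was at 1.62 CPM at 16 h against 0.142 CPM with no LPS, 11.5-fold on 45 and 4 reads, with an interval of 4.18 to 43.9. Hoxa2 was at 1.05 CPM against 0.177 CPM, 5.92-fold on 29 and 5 reads (2.26 to 19.6). Both calls rest on a few reads in the lower library. Hoxb9 was again 1.66-fold (1.36 to 2.02) and Hoxd9 0.622-fold (0.510 to 0.756). Here 11 members lay above 0 in log2 ratio and 8 below, with a median of 0.19 beside 0.01 over all measured genes.

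At 20 h against no LPS, Hoxb5 was called higher and none lower, 1 of 19, where 0.551% of measured genes were called higher, 0.102% lower and 0.652% in either direction. It had 28 reads at 20 h and 11 with no LPS, 2.60-fold (1.25 to 5.78), and 1.01 CPM at 20 h put it just past the level needed. Of the 19 measured members 17 had a log2 ratio above 0, with a median of 0.29 beside -0.00 over all measured genes. The share above 0 among genes at the level of the members is not given here. Hoxb7 was 1.56-fold (1.14 to 2.15), Hoxb4 1.52-fold (1.04 to 2.25), Hoxb2 1.40-fold (1.09 to 1.79), Hoxa5 1.39-fold (1.07 to 1.81) and Hoxd9 1.31-fold (1.12 to 1.55). These 3 comparisons share the no LPS library, so a low or high value there enters all of them: of the 19 measured members, 9 were lowest and 0 highest with no LPS, and 10 were highest at 20 h.

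**Figure D4:**
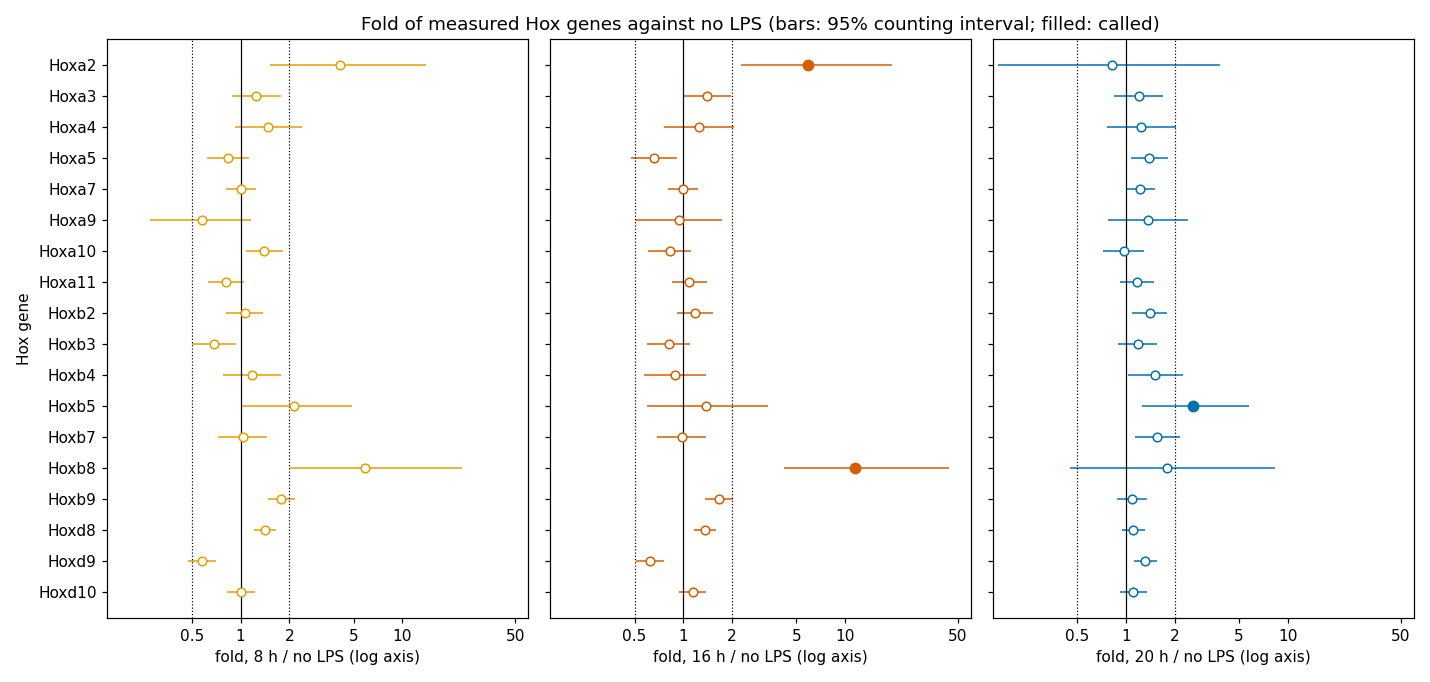
Fold of measured Hox genes at 8, 16 and 20 h against no LPS, on a log axis with 95% counting intervals (n = 1 library each); dotted lines mark folds of 0.5 and 2, and filled points are called. Hoxb8 and Hoxa2 at 16 h and Hoxb5 at 20 h are filled, and the other members lie mostly between the dotted lines.

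Between successive labels, 16 h against 8 h gave 0 called members of 19, where 0.237% of measured genes were called, 0.161% higher and 0.0763% lower. The largest ratios were Hoxb8, at 1.62 CPM at 16 h and 0.836 CPM at 8 h, 1.94-fold (1.16 to 3.33), and Hoxa10, at 2.92 CPM at 16 h and 4.95 CPM at 8 h, 0.591-fold (0.444 to 0.782). At 20 h against 16 h, 4 of 19 were called, where 8.47% of measured genes were. Hoxd9 was called higher, at 12.7 CPM at 20 h against 6.03 CPM at 16 h, 2.11-fold (1.75 to 2.56), and so was Hoxa5, at 5.02 against 2.38 CPM, 2.11-fold (1.56 to 2.87); 4.63% of measured genes were called higher. Hoxb8 was called lower, on 7 reads at 20 h against 45 at 16 h, 6.43-fold lower (2.88 to 16.9), and Hoxa2 was called lower on 4 against 29 reads, 7.25-fold (2.54 to 28.4), where 3.85% of measured genes were.

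Markers of other cells differed between the same columns. Keratin genes stood with Hoxb9, Hoxb8 and Hoxa2: Krt8 had 13.1 CPM in the library without LPS, 32.6 in that of 8 h, 32.5 in that of 16 h and 14.1 in that of 20 h. The 8 epithelial markers, 2 of them measured, summed to 51.6 CPM in the library without LPS, 124 in that of 8 h, 125 in that of 16 h and 52.1 in that of 20 h, while Epcam, Cdh1, Sftpc, Sftpb, Scgb1a1 and Nkx2-1 had at most 5 reads in any library. Col3a1 went the other way, with Hoxd9 and Hoxb3, at 168, 81.8, 83.2 and 163 CPM. The fibroblast list, with 3 of 8 measured, summed to 212, 117, 122 and 203 CPM. Of the endothelial list, with 3 of 15 measured, 2 were called higher and 0 lower at 8 h and at 16 h against no LPS. Of all measured genes 4.19% and 4.13% were called higher there. These 2 were Flt1, with 11.7, 27.3, 28.3 and 11.4 CPM, and S1pr1, the gene of the reporter, with 27, 87, 79 and 29 reads. The other measured marker was not called, and the reads of Pecam1, given above, were highest with no LPS. The part of such cells in the Hox differences was not tested.

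The spread over the 4 labels was close to that of genes at the same level. The ratio of the highest to the lowest library had a median of 1.69 over the 19 measured members, against 1.65 over the 3230 measured genes with a mean CPM in the same range, and 1.30 over all measured genes. It was 2 or more for 6 of 19 members, and for 33.9% of the genes in that range. Hoxd10 had the smallest ratio, 1.14, and Hoxb8 the largest, 11.5. A linear trend over label hours in edgeR's quasi-likelihood fit (2 residual degrees of freedom) called 0 of 11803 genes (0.0%) at a Benjamini-Hochberg adjusted p under 0.05, and so 0 of 19 members. Without adjustment 43 genes and 0 members had p under 0.05. DESeq2 also called 0, with 25 genes under 0.05 unadjusted. The member with the smallest p was Hoxb2, at 0.0227 ± 0.0149 (SE) on the log2 scale per hour over 4 libraries (unadjusted p = 0.203, edgeR adjusted p = 0.9999), and a course that turns back at 20 h is not what this trend looks for.

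Other transcripts made inside the clusters were few. Of the 13 further genes of the table that lie between the outermost members, 3 reached 1 CPM in any library and none was called in any comparison. Hoxa11os, antisense to Hoxa11, had 65, 75, 67 and 78 reads in the no LPS, 8, 16 and 20 h libraries. The long noncoding Gm53 in HoxB had 68, 42, 46 and 81 reads, and the pseudogene Gm11539 had 21, 21, 21 and 34. Haglr, a noncoding RNA gene that overlaps Hoxd3 on the opposite strand, had 0 reads. Of 14 measured genes outside the cluster ends, 0 were called in any comparison, with a median log2 ratio of 0.10 at 8 h, 0.06 at 16 h and 0.01 at 20 h against no LPS. Over all measured genes, 0.237% to 8.47% were called, depending on the comparison.

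The clusters also encode the miRNAs miR-10 and miR-196, which repress several Hox mRNAs. They are not rows of the table and were not measured here, but their sequences are shown because miR-196 is known to cut the mRNA of Hoxb8, the member with the widest spread. Mature sequences are those of RefSeq (GRCm38.p6), 5′ to 3′, with the seed (bases 2 to 8) in capitals.
mmu-miR-196a-5p: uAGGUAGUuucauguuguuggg
mmu-miR-196b-5p: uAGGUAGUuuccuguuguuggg
mmu-miR-10a-5p: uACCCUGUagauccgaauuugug
mmu-miR-10b-5p: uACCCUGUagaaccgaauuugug
Hoxb8 site facing miR-196a: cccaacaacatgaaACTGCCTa
The first 2 share 1 seed and the last 2 another. In the Hoxb8 site, bases 418 to 439 of the annotated 3′ UTR of 845 bases on chromosome 11, the capitals face the seed; of the 22 bases, 21 pair with miR-196a and 1 makes a G-U pair. A perfect seed match for miR-196 (ACTACCT) was in the longest annotated 3′ UTR of 9 of 39 members, against 6.10% of 21028 genes, and one for miR-10 (ACAGGGT) in 4 of 39, against 12.5%. Of the 9, 6 were measured members, among them Hoxa4, Hoxa5, Hoxa7, Hoxa9 and Hoxb7.

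The partners of Hox proteins were on. Of 9 genes of the TALE class 8 were measured and 0 were called in any comparison. Of all measured genes 8.31%, 8.23% and 0.652% were called at 8, 16 and 20 h against no LPS. For 16 h against 8 h the share was 0.237%, and for 20 h against 16 h it was 8.47%. The same shares stand beside the calls of the lists that follow. Pbx2 was highest per kb, at 9.07 CPM per kb on average, with 32.2, 34.8, 33.6 and 31.5 CPM in the no LPS, 8, 16 and 20 h libraries. Pbx3 had 8.63, 14.2, 14.3 and 8.09 CPM. Meis2 had 15.7, 21.3, 21.6 and 16.3 CPM. The list's median log2 ratio was 0.14 at 8 h, 0.21 at 16 h and -0.03 at 20 h against no LPS, where all measured genes had 0.00, 0.01 and -0.00. The regulators upstream of Hox genes in the tail bud, Cdx1 and Cdx4, had 0 reads and Cdx2 had 5 reads at 16 h and 0 elsewhere; Evx1 and Evx2, next to HoxA and HoxD, had at most 1 read.

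The complexes that keep Hox genes silent or active were also on. All 34 Polycomb genes were measured, among them Rbbp7 at 98.2 CPM per kb, and 0 were called against no LPS, with medians of 0.03, 0.02 and 0.02. At 20 h against 16 h, 1 was called higher, Epop, a Polycomb partner, with 11.2 CPM at 20 h and 4.98 CPM at 16 h. All 21 Trithorax and MLL genes were measured and 0 called, with medians of -0.11, -0.14 and 0.03. Retinoic acid, which switches on front Hox genes, was represented by 9 measured genes of 18. Its nuclear receptor genes Rxrb and Rarg had 20.2 and 14.8 CPM per kb, its synthetic enzyme genes Aldh1a1, Aldh1a2 and Aldh1a3 had at most 7 reads, and Crabp2, which carries it to the nucleus, was called lower at 8 h, with 0.244 CPM at 8 h against 1.13 CPM with no LPS. Crabp2 was also called lower at 16 h against no LPS, and the list's medians were 0.18, 0.19 and -0.04. At 20 h against 16 h, 1 gene of this list was called higher and 1 lower.

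Transcription factors that mark position outside the Hox system gave a mixed picture. Of 12 genes of the lung field 7 were measured, among them Foxf2 at 11.7, 14.7, 16.0 and 13.8 CPM and Foxf1, a gene of lung mesenchyme and endothelium, at 5.73, 6.83, 7.33 and 7.55 CPM in the no LPS, 8, 16 and 20 h libraries. Nkx2-1, the gene of lung epithelium, had 0 reads, the lung mesenchyme signal gene Wnt2 at most 2 reads and Tbx5 at most 19. Sox9, a gene of the distal lung tip and of cartilage, had 15.2, 27.4, 30.1 and 21.0 CPM. Tbx4, a gene of lung mesenchyme and hindlimb, had 2.23, 1.498, 2.06 and 3.21 CPM. Of this list Foxa2 was called higher at 8 h, with 4.70 CPM at 8 h against 1.84 CPM with no LPS, and at 16 h, with 4.37 CPM; the medians were 0.25, 0.35 and 0.37.

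Of 22 genes of limb and trunk mesenchyme 9 were measured. Twist1 was highest per kb, with 34.9, 39.1, 40.5 and 50.4 CPM, followed by Prrx1, a gene of limb bud and skull mesenchyme, with 210, 209, 213 and 211 CPM. Twist2 had 10.2, 19.3, 20.0 and 16.9 CPM. Prrx2 was the member called against no LPS, higher at 8 and 16 h. It had 1.46 and 1.34 CPM at 8 and 16 h and 0.460 CPM with no LPS. At 20 h against 16 h, 1 gene of this list was called lower. The hindlimb gene Pitx1 and the genes Tcf21, Hand2 and Pax1 had 0 reads. The medians were 0.34, 0.32 and 0.12.

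Of 21 genes of head and neural crest 7 were measured and 9 had 0 reads in all libraries. Dlx2, of jaw and forebrain, had 11.5, 20.6, 20.1 and 14.3 CPM in the no LPS, 8, 16 and 20 h libraries, and Otx2, Dlx5 and Dlx6 had 0 reads. Otx1 was called higher at 8 h and at 16 h, with 3.07 and 3.39 CPM against 1.13 CPM with no LPS. The medians were 0.37, 0.60 and 0.13, and 1 gene of this list was called lower at 20 h against 16 h. Of 9 heart genes 2 were measured, Gata4 with 20.0, 16.3, 16.3 and 21.8 CPM and Irx5, and of 12 genes of kidney and genital tract 5 were, with Osr2 highest per kb at 3.69 CPM per kb; 0 of either list were called. The libraries thus held transcripts of factors known from regions far apart beside Hox groups 1 to 11, and bulk RNA does not tell whether they came from the same cells.

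**Figure D5:**
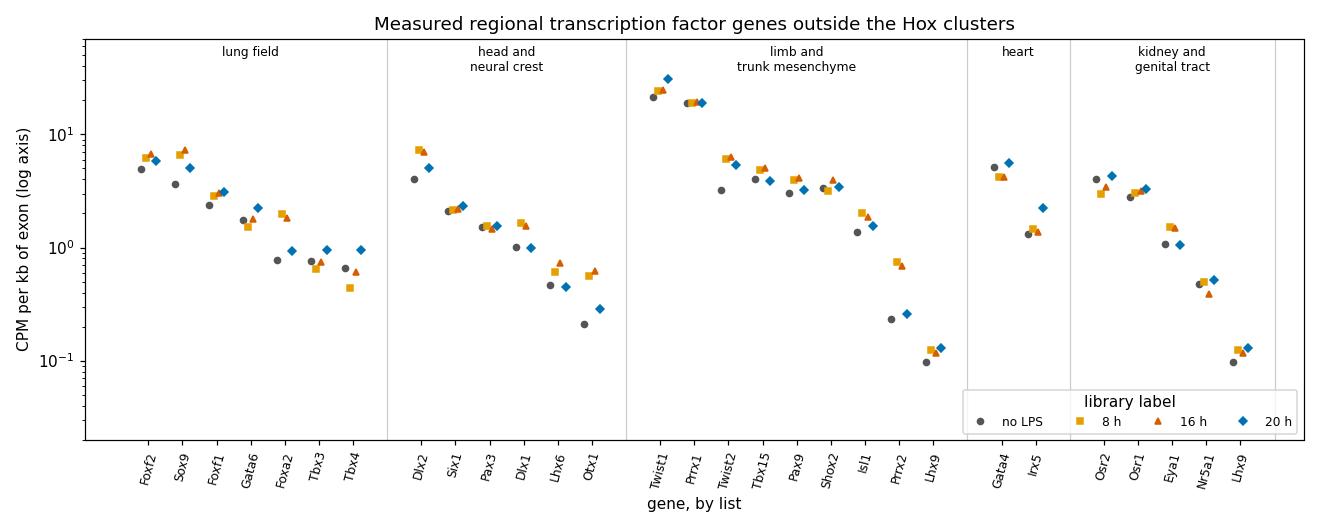
Level of measured regional transcription factor genes outside the Hox clusters, in CPM per kb of exon on a log axis, grouped by list, with 1 symbol per library (n = 1 each). Twist1 and Prrx1 stand highest, and each of the 5 lists has measured members.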

How the data were processed

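Poly(A) RNA of cells sorted from mouse lung was sequenced as 4 libraries, 1 per label, per the labels. The authors deposited whole-number read counts per Ensembl gene; per the submitters' processing notes these came from STAR and featureCounts on mm10, with no annotation, strand setting or treatment of shared reads stated there. A 24 h time is not analysed here.

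Symbols, exons and coordinates came from GENCODE M21 (mm10), which matched 38872 of 39056 identifiers (99.5%). Counts were scaled by TMM to CPM. Exon length was the union of annotated exons. A gene was measured at 1 CPM or more in at least 1 library. With 1 library per label, pairs were compared by folds of scaled counts with exact 95% binomial intervals, which cover counting error only, and the linear trend by edgeR 4.0.16 (quasi-likelihood, 2 residual degrees of freedom), with DESeq2 1.42.0 as alternative, on R 4.3.3. Motifs and seed matches were searched with Python 3.11.15.

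All 39 members entered the counts; 1 member and 2 other listed genes are not reported here by name. Of each other list the text counts the measured genes and, by rule, names the highest per kb and those with the largest log2 ratio against no LPS at 10 CPM or more; genes that were called, at 0 or named for their role lie partly outside that rule and were chosen after their values were seen. Members and lists were chosen with earlier results of these data known. Alternatives varied the scaling, the CPM minimum, the fold, the interval, the exon length, the depth and the libraries fitted.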

Additional observations from a re-analysis of the deposited data

How the results depend on the processing

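The calls depended on the level and fold asked for. At 10 CPM the members on were 0 with no LPS and 2, 2 and 2 at 8, 16 and 20 h. At 1 CPM per kb 11, 12, 10 and 12 were on in the no LPS, 8, 16 and 20 h libraries. At 0.5 CPM 16, 20, 22 and 18 were on in the same order. Members called were 3 at 8 h against no LPS and 4 at 16 h against no LPS with no CPM minimum. With a minimum of 10 CPM they were 0 at 16 h and 0 at 20 h against no LPS, and 1 at 20 h against 16 h. With a fold of 4 they were 0 at 20 h against no LPS and 2 at 20 h against 16 h, and with a stricter interval 0 at 20 h against no LPS. Genes called among all with a minimum of 10 CPM were 332 at 8 h, 332 at 16 h and 22 at 20 h against no LPS, 0 at 16 h against 8 h and 357 at 20 h against 16 h. With a fold of 4 they were 187, 178, 9, 2 and 184 in that order of comparisons. With no minimum they were 1445 at 8 h, 1484 at 16 h and 216 at 20 h against no LPS and 172 at 16 h against 8 h, and with a stricter interval 40 at 20 h against no LPS and 4 at 16 h against 8 h. Per kb of exon, HoxB held 22.2% of the summed Hox level with no LPS and HoxD 38.7%; per kb of exon free of other genes these were 21.1% and 38.0%. The cause was not tested.

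Of 475 log2 ratios of members under the alternatives, 0 called ones changed sign and 1 left its counting interval: with a prior count of 10, Hoxb8 at 16 h against no LPS had 1.99, against 2.99 as reported. The trend called 0 genes in every alternative, also with each library left out (0 to 0). Without adjustment, p was under 0.05 for 1 of 18 members and 540 of 11721 genes without the no LPS library, and for 2 of 17 members and 2110 of 11716 genes without the 20 h library. No paired analysis was possible because each label has 1 library and no replicate number. At these depths a count of 0 allows, by the limit of 3 reads, up to 0.104 to 0.108 CPM.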
